A study of Mus musculus with 6 samples.

Results

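The 45 genes described here encode nucleolar factors that build ribosomes. They were chosen by gene symbol, from the established functions of their products, with earlier results of these data known. Each symbol matched 1 Ensembl identifier, so 45 of the 20409 features in the count table were members. Villus epithelium of the duodenum was compared between 3 double mutant mice and 3 wild-type mice, with 1 polyA-enriched bulk RNA-seq library per mouse and 2 females and 1 male in each group. The double mutants carried a Smad4 loss-of-function (floxed *Smad4* alleles) and a β-catenin gain-of-function (1 *Ctnnb1* allele with a floxed exon 3), and both alleles were recombined by Villin-CreERT2, a tamoxifen-inducible Cre that is active in the whole intestinal epithelium. They received tamoxifen at 0.05 g/kg on 4 consecutive days, and their villi were taken 7 days after induction. The wild-type mice were uninjected littermates on the same C57BL6-enriched background, so tamoxifen and the mutations cannot be told apart in this comparison. Mouse ages were not given in the sources used here. The comparison addresses how the transcriptome of the villus epithelium differs when ectopic crypts first appear.

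Ribosome synthesis begins in the nucleolus, where RNA polymerase I transcribes the ribosomal DNA into a long precursor rRNA. Small nucleolar ribonucleoproteins (snoRNPs) modify this precursor, and large sets of assembly factors fold it, cut it and join it to ribosomal proteins to form the small and large subunits. Many of these genes are known targets of the transcription factor Myc, and in the intestine ribosome synthesis is a feature of dividing crypt cells more than of differentiated villus cells.

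Between 19678507 and 26337318 reads were counted per mouse, so that 3 counts, taken as the floor of detection, amounted to 0.125 to 0.163 CPM (a gene's count relative to the total count of its library, with the total scaled by edgeR's TMM factor). *Smad4*, the deleted gene, ranged from 119.8 to 180.1 CPM among wild-type mice and from 26.1 to 36.8 CPM among double mutants. Counts per gene cannot show the loss of *Ctnnb1* exon 3. The tissue label held for the epithelium, since enterocyte markers took 4.08% to 4.61% of wild-type counts and 6 stroma markers at most 0.000515% in any mouse. Wild-type mouse 1 stood apart from the other wild-type mice, with 0.0114% of its counts on 8 goblet cell markers against 1.06% and 1.08%. The 6 Paneth cell markers took 0.000721% of its counts against 0.0848% and 0.144%. The 8 crypt stem cell markers took 0.00404% against 0.0132% and 0.0145%. How much crypt material each villus library held was not tested. Values without wild-type mouse 1 are given for member counts, some members and some summed shares, but not for most genes of other lists. Wild-type mouse 1 was the only male wild-type mouse, and double mutant mouse 1 the only male double mutant. A value without wild-type mouse 1 therefore compares 2 wild-type females with 2 females and 1 male. Since these are bulk samples, more cells that express a gene and more RNA per cell cannot be told apart in any difference below.

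All 45 biogenesis factors were higher in the double mutant villi, with an adjusted p under 0.05 for each (edgeR's quasi-likelihood test, Benjamini-Hochberg adjustment over the 13346 genes tested). The background was 19.7% of tested genes called higher and 17.0% called lower. No member was lower, with 0 at an unadjusted p under 0.05 by edgeR and 0 called lower by DESeq2 or limma-voom. The median log2 fold change of the members was 1.67 (range 0.52 to 2.93), and that of all tested genes was 0.02. A log2 fold change of at least 2, the threshold of the study's methods, was reached by 10 of the 45 members and by 3.04% of tested genes. Without wild-type mouse 1 it was reached by 8 members and 2.66% of tested genes, with *Polr1a* (1.85), *Polr1b* (1.87) and *Gar1* (1.60) now under 2 and *Wdr12* (2.05) above it, and with library size alone by 15 members and 4.17% of tested genes. In all 45 genes every double mutant mouse lay above every wild-type mouse, as in 28.1% of tested genes, and in 0 of the 45 below, as in 24.2%. The ratio of the lowest double mutant to the highest wild-type value ran from 1.04 for *Rrp12* to 4.49 for *Grwd1*, and was at least 2 for 27 members. Scaling by library size alone moved the median of all tested genes from 0.02 to 0.22 and that of the members from 1.67 to 1.86. A change of scaling shifts all genes nearly alike, so the unchanged distance of 1.64 between both medians is no check of the result. With that scaling 3732 genes were higher and 1425 lower over the whole table, against 2632 and 2273 with TMM. All 45 members passed the filter on low counts, 43 of them in each wild-type mouse as well, while *Gar1* and *Nle1* fell under its cutoff of 0.498 CPM in wild-type mouse 1.

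**Figure D1:**
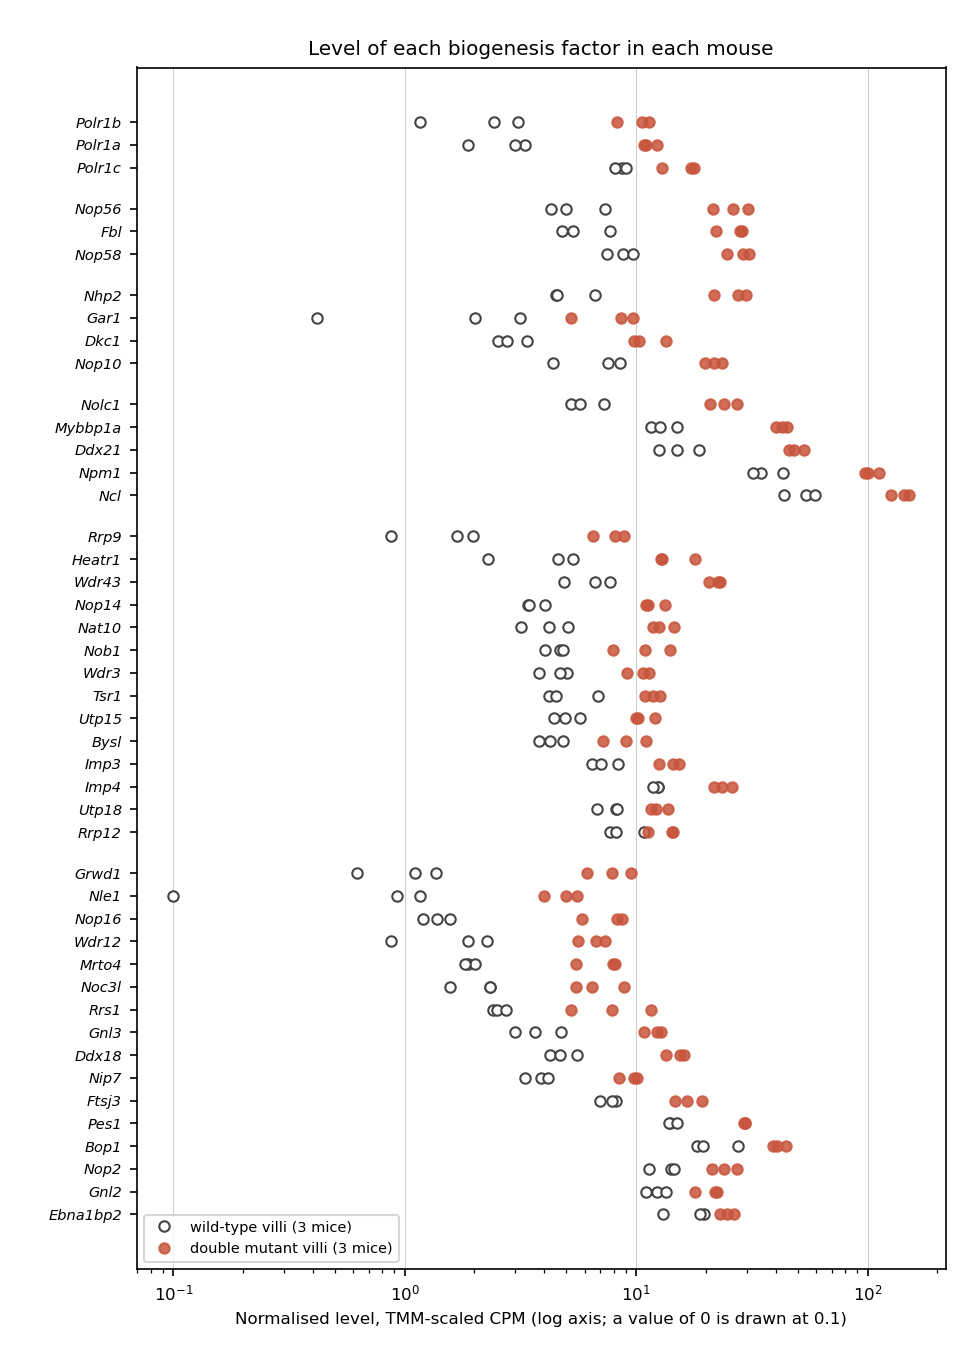
Level of each of the 45 biogenesis factors in each mouse, as TMM-scaled CPM on a log axis, with genes grouped by role and ordered by fold change within a role. Open circles are the 3 wild-type mice and filled circles the 3 double mutant mice. In every row the filled circles lie to the right of the open ones, with the narrowest gap for Rrp12 (ratio 1.04) and the widest for Grwd1 (ratio 4.49). A wild-type value of 0 for Nle1 is drawn at 0.1.

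Of the RNA polymerase I subunits, *Polr1a* (ENSMUSG00000049553; mm9 chromosome 6, 71859047 to 71929350) encodes the largest catalytic subunit and had 1.87, 3.32 and 2.98 CPM in wild-type mice 1, 2 and 3 and 10.8, 11.0 and 12.3 CPM in double mutant mice 1, 2 and 3 (log2 fold change 2.07, standard error 0.244, adjusted p = 0.000550). *Polr1b* (chromosome 2, 128926731 to 128952330), the second catalytic subunit, had 1.17, 3.10 and 2.43 CPM in the wild-type mice and 10.6, 11.4 and 8.26 CPM in the double mutant mice (log2 fold change 2.19, standard error 0.342, adjusted p = 0.00186). For both catalytic subunits the mutant values were at least 2 times the highest wild-type value, and wild-type mouse 1 was the lowest. *Polr1c* (chromosome 17, 46380869 to 46385003) encodes a subunit shared with RNA polymerase III, and its 8.71, 9.03 and 8.14 CPM in the wild-type mice and 13.0, 17.2 and 17.8 CPM in the double mutant mice also did not overlap, with a smaller change (log2 fold change 0.89, standard error 0.172, adjusted p = 0.00475). Without wild-type mouse 1 the log2 fold changes of *Polr1a* and *Polr1b* were 1.85 and 1.87 (adjusted p = 0.000145 and 0.000386, edgeR).

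The box C/D snoRNPs guide the methylation of rRNA riboses, and the 3 of their core proteins among the members were all higher. The remaining core protein, *Snu13*, is no member and stands below with the other snoRNP genes. *Fbl* (fibrillarin, the methyltransferase; chromosome 7, 28954765 to 28964288) had 4.79, 5.33 and 7.73 CPM in wild-type mice 1, 2 and 3 and 22.0, 28.7 and 28.0 CPM in double mutant mice 1, 2 and 3 (log2 fold change 2.14, standard error 0.215, adjusted p = 0.000293). *Nop56* (chromosome 2, 130100166 to 130105049), a scaffold protein of the particle, had 4.96, 4.30 and 7.33 CPM in the wild-type mice and 21.6, 30.3 and 26.1 CPM in the double mutant mice (log2 fold change 2.23, standard error 0.231, adjusted p = 0.000324). Wild-type mouse 3 had the highest wild-type value of both genes, and double mutant mouse 1 the lowest mutant value. *Nop58* (chromosome 1, 59741853 to 59768968), the second scaffold protein, had 8.75, 7.45 and 9.71 CPM in the wild-type mice and 29.0, 30.8 and 24.7 CPM in the double mutant mice (log2 fold change 1.71, standard error 0.159, adjusted p = 0.000219). Together the 3 genes took 0.00189% ± 0.000429 of wild-type and 0.00858% ± 0.000842 of double mutant counts (SD, n = 3 mice each).

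The box H/ACA snoRNPs, which convert uridines of rRNA to pseudouridine and also form part of telomerase, have 4 core proteins, and all 4 genes were higher. *Dkc1* (dyskerin, the pseudouridine synthase; chromosome X, 72341193 to 72355116) had 2.54, 2.77 and 3.39 CPM in wild-type mice 1, 2 and 3 and 10.3, 13.5 and 9.83 CPM in double mutant mice 1, 2 and 3 (log2 fold change 1.95, standard error 0.219, adjusted p = 0.000444). *Nhp2* (chromosome 11, 51433237 to 51437216) had 4.50, 4.57 and 6.67 CPM in the wild-type mice and 21.7, 29.8 and 27.6 CPM in the double mutant mice and the largest change of the 4 (log2 fold change 2.33, standard error 0.211, adjusted p = 0.000192). *Nop10* (chromosome 2, 112102083 to 112103426) had 8.50, 4.35 and 7.58 CPM in the wild-type mice and 21.7, 23.5 and 19.8 CPM in the double mutant mice (log2 fold change 1.67, standard error 0.240, adjusted p = 0.00128). Neither gene overlapped between the groups. *Gar1* (chromosome 3, 129527830 to 129534314) had 0.417, 2.01 and 3.13 CPM in the wild-type mice and 5.21, 8.58 and 9.68 CPM in the double mutant mice (log2 fold change 2.09, standard error 0.606, adjusted p = 0.0308). Its wild-type values ranged most widely after those of *Nle1*, with a coefficient of variation of 73.6%, and its call was lost without double mutant mouse 2 (adjusted p = 0.0965), double mutant mouse 3 (0.0874) or wild-type mouse 2 (0.0933). Without wild-type mouse 1 its log2 fold change was 1.60 (adjusted p = 0.00423, edgeR).

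Among the abundant nucleolar proteins and rDNA-associated factors, *Ncl* and *Npm1* encode nucleolin and nucleophosmin, major proteins of the nucleolus. *Nolc1*, a snoRNP chaperone (chromosome 19, 46150353 to 46160018), had the largest change of the group, with 5.25, 7.24 and 5.71 CPM in the wild-type mice and 20.8, 27.2 and 23.9 CPM in the double mutant mice (log2 fold change 1.98, standard error 0.183, adjusted p = 0.000207). *Ncl* (chromosome 1, 88241294 to 88256030) had the smallest, with 43.6, 54.1 and 59.0 CPM in the wild-type mice and 127, 151 and 143 CPM in the double mutant mice (log2 fold change 1.42, standard error 0.141, adjusted p = 0.000276). The mutant mice were again above all wild-type mice. *Npm1* had 34.7, 31.9 and 42.9 CPM in the wild-type mice and 97.7, 112 and 101 CPM in the double mutant mice (adjusted p = 0.000205, edgeR), and its mean was 2.83-fold higher in the mutants. *Ddx21*, a helicase of rRNA transcription and processing, changed by 1.67 and *Mybbp1a*, a nucleolar Myb-binding protein, by 1.70 on the log2 scale. *Mybbp1a* had the smallest adjusted p of the 45 members (0.000118, edgeR).

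The 14 small subunit factors had a median log2 fold change of 1.21 and ranged from 0.58 to 2.38. *Rrp9* (chromosome 9, 106378294 to 106387755), a protein of the snoRNP that nucleates the small subunit processome, had 0.875, 1.69 and 1.97 CPM in the wild-type mice and 6.53, 8.07 and 8.83 CPM in the double mutant mice (log2 fold change 2.38, standard error 0.325, adjusted p = 0.00101). *Rrp12* (chromosome 19, 41937342 to 41970643), which takes part in the maturation and export of pre-ribosomes, had 10.8, 7.73 and 8.19 CPM in the wild-type mice and 14.3, 14.4 and 11.3 CPM in the double mutant mice (log2 fold change 0.58, standard error 0.192, adjusted p = 0.0438). Its lowest mutant value was close to wild-type mouse 1, and its call was lost without double mutant mouse 1 (adjusted p = 0.107) or 2 (0.131), without wild-type mouse 2 (0.139) or 3 (0.130) and by DESeq2 (0.0526), with RLE factors (0.0505) or with the replicate number as a block (0.0672). Of the other processome proteins, *Heatr1* (1.85), *Wdr43* (1.79) and *Nop14* (1.71) were above the median of the group on the log2 scale, and *Utp15* (1.09), *Imp3* (0.96), *Imp4* (0.96) and *Utp18* (0.70) below it. *Wdr3* had a log2 fold change of 1.21. *Nat10*, an acetyltransferase of small subunit rRNA, changed by 1.65 on the log2 scale. The later-acting factors *Bysl*, *Tsr1* and *Nob1*, the last an endonuclease that trims the small subunit rRNA, had log2 fold changes of 1.07, 1.20 and 1.28.

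The 16 large subunit factors held both the largest and the smallest change of the 45 genes. *Grwd1* (chromosome 7, 53080597 to 53086314), a chaperone of ribosomal protein assembly, had 0.625, 1.36 and 1.11 CPM in the wild-type mice and 6.10, 9.46 and 7.88 CPM in the double mutant mice (log2 fold change 2.93, standard error 0.338, adjusted p = 0.000497). *Nle1* (chromosome 11, 82714270 to 82721913), which acts in the remodelling of pre-ribosomal large subunits, had 0, 0.925 and 1.16 CPM in the wild-type mice and 3.99, 5.57 and 4.98 CPM in the double mutant mice (log2 fold change 2.83, standard error 0.849, adjusted p = 0.0358). Wild-type mouse 1 had no count of *Nle1*, and without that mouse the log2 fold change was 2.21 (adjusted p = 0.000587, edgeR). Leaving out any other mouse took its adjusted p to between 0.0524 and 0.114, and DESeq2 gave 0.0924. *Nop16* (chromosome 13, 54685546 to 54691451) had 1.38, 1.20 and 1.57 CPM in the wild-type mice and 5.82, 8.26 and 8.69 CPM in the double mutant mice (log2 fold change 2.45, standard error 0.265, adjusted p = 0.000372) and little spread within the wild-type group. At the other end, *Ebna1bp2* (chromosome 4, 118293404 to 118300381) had 19.6, 13.1 and 19.0 CPM in the wild-type mice and 24.7, 26.5 and 23.0 CPM in the double mutant mice (log2 fold change 0.52, standard error 0.174, adjusted p = 0.0449), and its call was lost on removal of any 1 mouse other than wild-type mouse 1, with adjusted p between 0.0670 and 0.135, and by DESeq2 (0.0505), with RLE factors (0.0535) or with the replicate block (0.0845). The 3 proteins of the PeBoW complex, which act together in large subunit rRNA processing, changed by 0.93 (*Bop1*), 1.04 (*Pes1*) and 1.96 (*Wdr12*) on the log2 scale. *Pes1* had the smallest standard error of all members (0.117) and 29.1 to 29.6 CPM in the double mutant mice. The GTPases *Gnl3* (nucleostemin) and *Gnl2* had log2 fold changes of 1.66 and 0.75, and the rRNA methyltransferases *Ftsj3* and *Nop2* of 1.13 and 0.86. The remaining assembly factors were *Mrto4* (1.91), *Noc3l* (1.74), *Rrs1* (1.69), *Ddx18* (1.63) and *Nip7* (1.32).

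**Figure D2:**
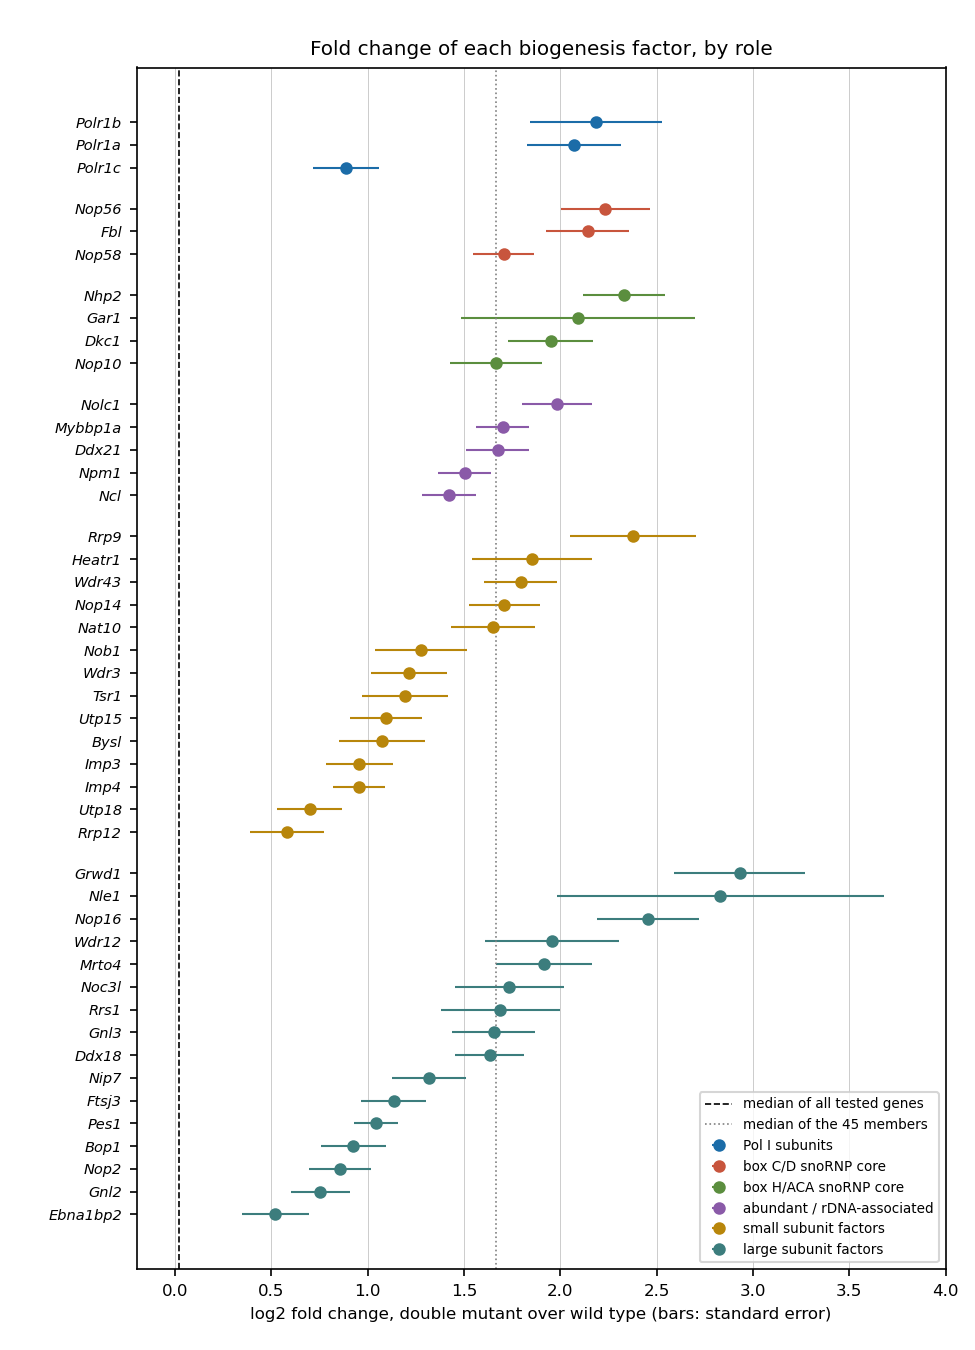
Log2 fold change of each biogenesis factor, double mutant over wild type, with the standard error as a horizontal bar and the role as colour. The dashed line is the median of all tested genes (0.02) and the dotted line that of the 45 members (1.67). Values run from 0.52 for Ebna1bp2 to 2.93 for Grwd1, and the widest bars belong to Nle1 (0.849) and Gar1 (0.606).

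A total of 41 of the 45 members passed the threshold whichever of the 6 mice was removed and in each of 7 further settings, and *Ebna1bp2*, *Gar1*, *Nle1* and *Rrp12* were the exceptions. Across those 13 settings the share of all tested genes called higher ran from 12.7% to 28.0%. Over all tested genes, 45 of 45 members lay above the 75th and 30 above the 90th percentile of the log2 fold change.

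**Figure D3:**
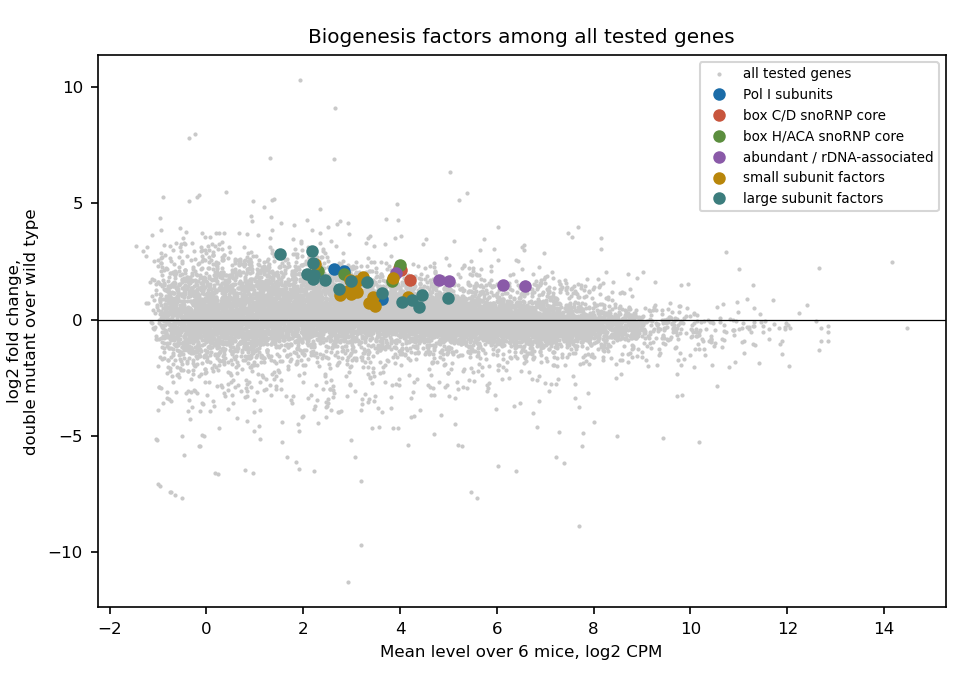
Log2 fold change against mean level (log2 CPM over the 6 mice) for all 13346 tested genes in grey and the 45 biogenesis factors coloured by role. All members lie above 0, between 0.52 and 2.93, while the grey points spread to both sides.

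The upstream sequences of the members were searched for the E-box CACGTG, a palindrome that Myc binds with its partner Max. RefSeq promoter windows, 250 bases before to 50 after the gene start, were found by symbol for 39 of the 45 members, and *Fbl*, *Npm1*, *Rrp12*, *Bop1*, *Rrs1* and *Gnl2* were not matched. An E-box stood in the window of 9 of these 39 members (23.1%), against 11.8% of the 8852 tested genes with a window and 8.09% of all 27025 genes with one. The 9 were *Mybbp1a*, *Utp18*, *Wdr43*, *Imp4*, *Tsr1*, *Pes1*, *Nop2*, *Grwd1* and *Nle1*. Their median log2 fold change was 1.20 (0.70 to 2.93), and that of the 30 members without an E-box was 1.69 (0.52 to 2.45). In 6 of the 9 windows the E-box lay at or after the start, against 12.7% of the E-box windows of tested genes. A match describes letters in the window only. The windows of the members with the largest changes (*Grwd1*, *Nle1* and *Nop16*) and 2 of those with the smallest (*Utp18* and *Ebna1bp2*) are printed from RefSeq on GRCm38.p6, 5′ to 3′ on the gene's strand, with the E-box in capitals. They are chr7:45830740-45831039, minus strand for *Grwd1*, chr11:82908346-82908645, minus strand for *Nle1*, chr13:54590025-54590324, minus strand for *Nop16*, chr11:93885717-93886016, minus strand for *Utp18* and chr4:118620549-118620848, plus strand for *Ebna1bp2*.
Grwd1: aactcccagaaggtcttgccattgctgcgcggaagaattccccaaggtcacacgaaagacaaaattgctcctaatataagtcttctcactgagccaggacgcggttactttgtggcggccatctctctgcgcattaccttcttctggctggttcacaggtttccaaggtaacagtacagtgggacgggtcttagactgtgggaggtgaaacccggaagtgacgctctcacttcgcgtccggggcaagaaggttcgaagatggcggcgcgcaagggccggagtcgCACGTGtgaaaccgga
Nle1: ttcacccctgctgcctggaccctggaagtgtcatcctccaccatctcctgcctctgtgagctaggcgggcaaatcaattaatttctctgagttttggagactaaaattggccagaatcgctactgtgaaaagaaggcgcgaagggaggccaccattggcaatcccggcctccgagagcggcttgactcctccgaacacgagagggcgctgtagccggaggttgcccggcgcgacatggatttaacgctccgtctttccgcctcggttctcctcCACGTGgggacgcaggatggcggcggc
Nop16: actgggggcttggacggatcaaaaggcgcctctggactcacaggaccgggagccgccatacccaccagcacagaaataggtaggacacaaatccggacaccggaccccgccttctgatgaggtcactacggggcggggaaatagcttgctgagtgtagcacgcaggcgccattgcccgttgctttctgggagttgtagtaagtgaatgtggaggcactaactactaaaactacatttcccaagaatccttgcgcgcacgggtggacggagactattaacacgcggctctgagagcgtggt
Utp18: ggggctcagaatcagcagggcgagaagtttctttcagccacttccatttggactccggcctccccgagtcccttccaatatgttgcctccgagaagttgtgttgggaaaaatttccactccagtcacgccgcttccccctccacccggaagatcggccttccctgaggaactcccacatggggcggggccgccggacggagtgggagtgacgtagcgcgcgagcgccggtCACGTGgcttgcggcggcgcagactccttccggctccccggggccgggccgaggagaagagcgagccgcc
Ebna1bp2: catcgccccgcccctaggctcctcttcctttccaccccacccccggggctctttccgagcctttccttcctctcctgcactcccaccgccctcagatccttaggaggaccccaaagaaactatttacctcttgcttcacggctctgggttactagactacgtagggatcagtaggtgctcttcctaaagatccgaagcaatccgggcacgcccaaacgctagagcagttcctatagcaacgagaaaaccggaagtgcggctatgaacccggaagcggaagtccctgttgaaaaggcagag
The E-box of *Grwd1* begins 34 bases and that of *Nle1* 23 bases after the start, and that of *Utp18* 20 bases before it. *Nop16* changed by 2.45 on the log2 scale with no E-box in its window, and *Utp18* by 0.70 with one.

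Per kilobase of annotated exon, levels in wild-type villi ran from 0.215 CPM for *Nle1* to 13.7 CPM for *Npm1*, a 63.7-fold range, and in double mutant villi from 1.34 CPM for *Wdr12* to 38.8 CPM for *Npm1*, a 28.9-fold range. The 5 highest levels per kilobase in wild-type villi were those of *Npm1*, *Bop1* (8.69), *Imp3* (8.08), *Ncl* (6.33) and *Nop10* (6.14). In double mutant villi they were those of *Npm1*, *Nhp2* (23.0), *Fbl* (22.6), *Nop10* (19.6) and *Ncl* (17.0). The order of the 45 levels was similar in both groups (Spearman's rho = 0.907 across genes). The log2 fold change fell with the wild-type level (rho = -0.554 across the 45 genes), a description only, since the wild-type values enter both measures and genes are not independent replicates.

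The mice differed less within a group than between groups. Relative to the wild-type mean, the median member stood at -0.16, -0.03 and 0.14 on the log2 scale in wild-type mice 1, 2 and 3 and at 1.53, 1.73 and 1.52 in double mutant mice 1, 2 and 3. Wild-type mouse 1 held the lowest wild-type value of 26 members and double mutant mouse 2 the highest mutant value of 29. The coefficient of variation over 3 mice had a median of 15.7% in wild-type villi (2.90% for *Imp4* to 88.3% for *Nle1*) and 11.5% in double mutant villi (1.05% for *Pes1* to 39.0% for *Rrs1*). The 45 genes together took 0.0313, 0.0324 and 0.0383% of the counts in wild-type mice 1, 2 and 3 and 0.101, 0.110 and 0.101% in double mutant mice 1, 2 and 3. The ratio of the group means was 3.05, and 2.94 without wild-type mouse 1.

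Marker lists of cell types and states differed in direction. The 8 cycling cell markers took 0.00610, 0.00830 and 0.00902% of wild-type counts and 0.0241, 0.0252 and 0.0206% of double mutant counts in mice 1, 2 and 3, and 7 of the 8 were higher, from 1.09 for *Pcna* to 2.38 for *Ccnb1* on the log2 scale (*Birc5*, 0.53, did not pass). The 8 crypt stem cell markers took 0.00404, 0.0132 and 0.0145% and 0.0315, 0.0239 and 0.0254%, with *Lgr5*, *Smoc2* and *Tnfrsf19* higher and the other 5 not past the threshold with all 6 mice. All 8 had a positive log2 fold change. *Slc12a2*, 1 of those 5 (2.21, adjusted p = 0.0541, edgeR), had 3.75, 19.9 and 24.8 CPM in the wild-type mice and 80.5, 61.7 and 80.1 CPM in the double mutant mice. The ratio of the group means was 2.98 for the cycling and 2.54 for the crypt stem cell markers, and 2.69 and 1.94 without wild-type mouse 1. The 10 enterocyte markers had 7 members lower, 2 not past the threshold and 1 higher (*Fabp1*). The 6 Paneth cell markers did not pass the threshold with all 6 mice, and their summed share ran from 0.000721% in wild-type mouse 1 to 0.144% in wild-type mouse 3. *Ang4*, with the lowest log2 fold change (-4.84, adjusted p = 0.123, edgeR), had 1.58, 371 and 533 CPM in wild-type mice 1, 2 and 3. In double mutant mice 1, 2 and 3 it had 11.45, 12.66 and 7.36 CPM. Of the 6 markers 2 had a positive log2 fold change. Calls without wild-type mouse 1 are not given, and a marker not past the threshold is not shown to be unchanged. The Paneth share was 0.0166%, 0.0263% and 0.0245% in the double mutant mice, and the ratio of the group means was 0.294, or 0.196 without wild-type mouse 1. The goblet cell markers took 0.494% to 0.548% of the counts in the double mutant mice, and the ratio of the group means was 0.734, or 0.492 without wild-type mouse 1. With all 6 mice 1 of these 8 markers was higher (*Clca1*) and the other 7 did not pass the threshold. Of the enteroendocrine markers 5 of 6 were lower, and of the tuft cell markers 6 of 6 were lower. Leukocyte markers took 0.00784% to 0.0160% of the counts across the 6 mice, and 2 of 7 were lower. The part of crypt or cycling cells in the rise of the biogenesis factors was not tested.

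**Figure D4:**
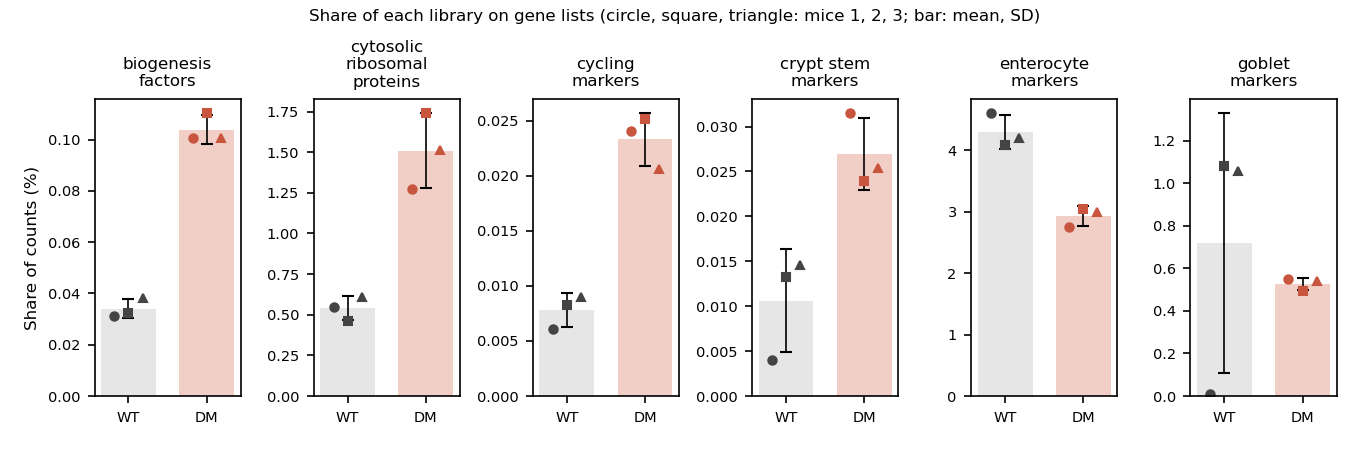
Share of each library's counts, in percent, on the 45 biogenesis factors, the genes named Rps or Rpl with a number (cytosolic ribosomal proteins) and the marker lists of 4 cell types or states, with bars for the mean of 3 mice, error bars for the SD and a symbol for each mouse. The biogenesis factors took 0.0313% to 0.0383% in wild type (WT) and 0.101% to 0.110% in double mutant (DM) mice. Wild-type mouse 1, the circle, is lowest for the cycling, crypt stem cell and goblet cell markers.

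The other genes of the pathway, written as 5 lists by role, held 126 genes, of which 120 were tested (the other 6 were not analysed here), 84 were higher and 2 lower (70.0% higher, background 19.7%), with a median log2 fold change of 0.85. The list of other snoRNP genes holds *Snu13* and 8 assembly factors, and 8 of its 9 genes were higher, from *Naf1* (2.38), an assembly factor of box H/ACA particles, down to *Nufip1* (1.03), and *Pih1d1* had 0.26 (adjusted p = 0.169, edgeR). *Snu13*, named after its values were seen, had 9.50, 9.85 and 9.96 CPM in the wild-type mice and 29.3, 32.4 and 25.3 CPM in the double mutant mice (log2 fold change 1.57, standard error 0.142, adjusted p = 0.000190), without overlap, and its change was the median of this list. In the small subunit list, 31 of 40 were higher, with the extremes at *Dimt1* (3.05), an rRNA dimethyltransferase, and *Riok3* (-0.15, adjusted p = 0.628). In the large subunit list, 33 of 47 were higher and 2 lower, with the largest change for *Rrp1b* (2.83, standard error 0.871, adjusted p = 0.0416, edgeR). *Rrp1b* had 0, 1.251 and 1.365 CPM in the wild-type mice and 5.915, 5.937 and 6.408 CPM in the double mutant mice. The size and rank of its change thus lean on the 0 in wild-type mouse 1. The 2 lower genes were *Sbds*, which acts in the last, cytoplasmic steps of large subunit maturation, and *Eif6*, the anti-association factor that *Sbds* helps to release. *Sbds* had 112, 112 and 121 CPM in the wild-type mice and 67.2, 66.7 and 72.3 CPM in the double mutant mice (log2 fold change -0.74, standard error 0.101, adjusted p = 0.00102), without overlap, and was lower in all 13 other settings. *Eif6* had 306, 249 and 296 CPM in the wild-type mice and 195, 231 and 232 CPM in the double mutant mice (log2 fold change -0.37, standard error 0.126, adjusted p = 0.0475), and was lower in 4 of the 13. *Efl1*, the GTPase partner of *Sbds*, averaged 70.4 ± 5.05 CPM over the wild-type mice and 59.5 ± 3.72 CPM over the mutants (SD, n = 3; adjusted p = 0.118, edgeR), a gene chosen after its values were seen.

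Among the other genes of RNA polymerase I transcription, 6 of 11 were higher. *Polr1e*, a polymerase I subunit, had 0.542, 0.544 and 0.657 CPM in the wild-type mice and 2.96, 4.45 and 5.55 CPM in the double mutant mice (log2 fold change 2.88, standard error 0.358, adjusted p = 0.000663). The initiation factor *Ubtf* had a log2 fold change of -0.29 and the termination factor *Ttf1* of -0.33, and neither passed the threshold. The initiation factor *Rrn3* was higher (log2 fold change 0.79, adjusted p = 0.00493, edgeR). *Ubtf* and *Rrn3* are not the extremes of this list and were named after their values were seen. Of 13 nuclear exosome genes, which degrade and trim RNA, 6 were higher, with *Exosc8* at 1.94 and *Mphosph6* at 0.01 on the log2 scale. Polymerase II subunits had a median log2 fold change of 0.40, with 4 of 12 higher, led by *Polr2l* (0.97), and *Polr2a*, its largest subunit, lower (-0.67, adjusted p = 0.00791). Polymerase III subunits had a median of 0.44, with 4 of 11 higher, led by *Polr3d* (1.58), and *Polr3f* lowest (-0.27, adjusted p = 0.305). Cytosolic ribosomal protein genes were taken by symbol (Rps or Rpl and a number), which also brought in *Rps19bp1* (0.76, adjusted p = 0.0770) and *Rpl7l1* (0.65, adjusted p = 0.00579), genes named for ribosomal proteins that do not encode one of the standard set. Of these 78 tested genes 70 were higher and 8 did not pass, with a median of 1.37 and extremes at *Rps12* (2.16) and *Rps4y2* (-0.54, adjusted p = 0.0518). Of 75 mitochondrial ribosomal protein genes 32 were higher and 43 did not pass, with a median of 0.45 and extremes at *Mrps6* (2.01) and *Mrpl43* (-0.25, adjusted p = 0.200). These lists are set beside the members as a description, without a test of the differences between lists.

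**Figure D5:**
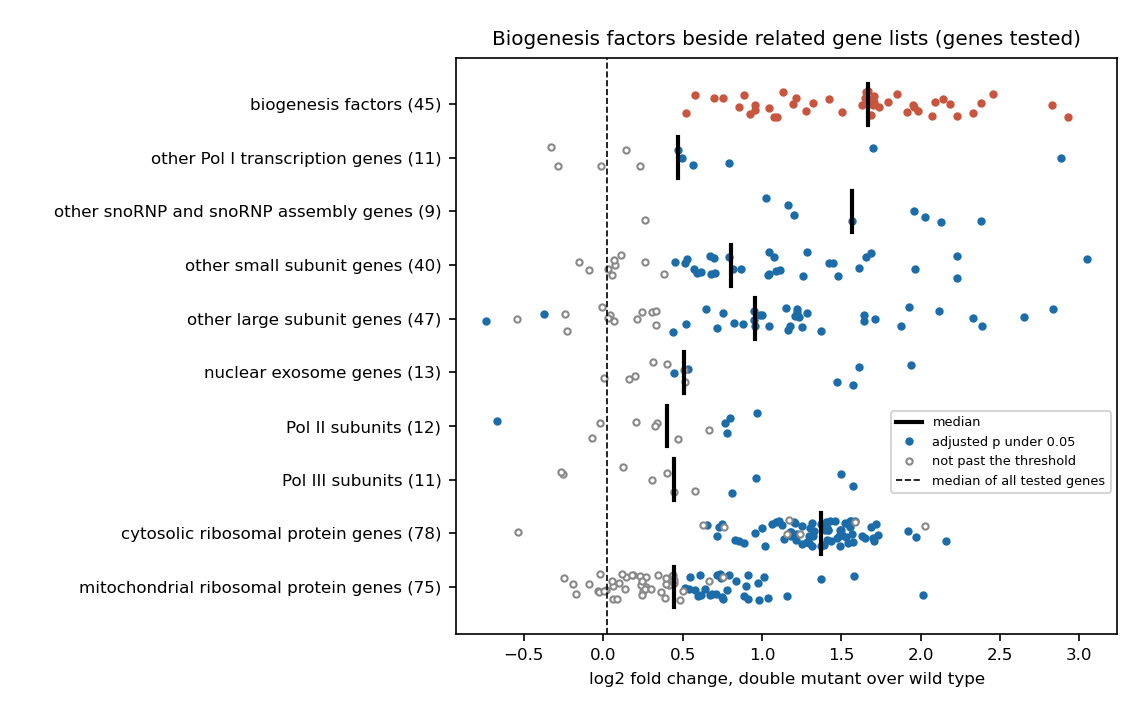
Log2 fold change of the 45 biogenesis factors and of 9 related gene lists, with 1 point per tested gene, filled where the adjusted p was under 0.05, and a bar at the median of each list. The biogenesis factors have the highest of the 10 medians (1.67), followed by the other snoRNP and snoRNP assembly genes (1.57) and the genes named Rps or Rpl with a number, labelled cytosolic ribosomal protein genes (1.37), and the dashed line marks the median of all tested genes (0.02).

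Some members share sequence with other loci, and their counts are uncertain to that extent. Stretches of at least 300 bp at 95% identity or more were found elsewhere in the mm9 genome for 7 members, namely at 4 loci for *Npm1*, 2 each for *Ddx18*, *Mrto4* and *Nop56*, and 1 each for *Fbl*, *Pes1* and *Wdr12*. Exons of 16 members overlap those of another annotated gene, and for 14 of them a gene in the table. Among genes in the table, the overlap exceeded 5% of the exon length for *Tsr1*, with *Srr* (32.3%, on the opposite strand), and *Bysl*, with *Ccnd3* (9.16%, opposite strand), where unstranded reads cannot be told apart. Among genes outside it, *Spag17* overlapped 15.7% of *Wdr3* and *Gm15522* 5.27% of *Nop14*, both on the opposite strand. On the log2 scale *Srr* differed by -0.25 (adjusted p = 0.176, edgeR) and *Ccnd3* by 0.39 (adjusted p = 0.155).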

How the data were processed

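Villus epithelium of 6 mice was profiled by bulk RNA-seq. RNA with an integrity number over 4 was sequenced as paired reads. For the deposited counts, which are not normalized, the authors mapped quality-filtered reads with HISAT2 (mm9) and assigned them to genes by featureCounts. Every mouse has its own column, and all 6 columns were used. The strand setting and the rule for reads that match several loci are not given in the sources used here. Groups and replicate numbers came from the sample labels. Of 20073 Ensembl identifiers, 20032 matched the mm9 annotation of GENCODE. Counts were filtered with filterByExpr (13346 genes kept), normalized by TMM and fitted with glmQLFit (robust) and glmQLFTest in edgeR 4.0.16 (R 4.3.3), and p-values were adjusted by Benjamini-Hochberg across the tested genes. The standard error of a log2 fold change was taken as its size over the root of its F statistic. The alternatives were DESeq2 1.42.0, limma-voom (limma 3.58.1), RLE factors, library size alone, no filter, sex as a covariate, a replicate block, a fold threshold and each mouse left out. Near-identical copies were sought with minimap2 2.31. A floor of 3 counts covers counting error only, since reads carry no molecular identifiers, and with 3 mice against 3 no exact permutation test of a single value can give a p under 0.1. The members and all gene lists were chosen with earlier results of these data known. Values in every mouse are given for all polymerase I and snoRNP core members, for the largest and smallest change of each other role and for the 5 largest changes; the 5 highest levels and the extremes of each other pathway and comparison list are named.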

Additional observations from a re-analysis of the deposited data

How the results depend on the processing

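All 45 members kept a positive log2 fold change in every setting tried. The number of members called higher was 42 by DESeq2 (15.8% of all genes with an adjusted p), 43 with RLE factors (18.9%), 43 with no filter on low counts (12.7%) and 45 by limma-voom (20.2%), with library size alone (28.0%) and with sex as a covariate (20.1%). It was 41 to 45 with a mouse left out (13.2% to 20.2%), and 36 with a log2 fold change of at least 1 added (10.9%). The median log2 fold change of the members was 1.86 with library size alone, and 1.55 to 1.74 with a mouse left out. Among the other pathway genes, the 2 lower genes became 1 with library size alone, with no filter, with the replicate block and with sex as a covariate, and 1 to 2 with a mouse left out. Mice with the same replicate number did not deviate together (correlations of 0.02, -0.11 and 0.01 for numbers 1, 2 and 3), so the numbers were not taken as pairs. The fit with the replicate block called 3834 genes in place of 4905 and 43 members as higher (15.6% of all genes), without *Rrp12* and *Ebna1bp2*. *Nle1* and *Gar1*, the members with the widest spread among wild-type mice (coefficients of variation of 88.3% and 73.6%), were not called when no filter was applied (adjusted p = 0.0938 and 0.0725), and the cause was not tested.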
